A study of Drosophila melanogaster with 6 samples.

Results

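The comparison described here sets ventral nerve cords (VNCs) of adult Drosophila melanogaster that carried a pros RNAi neuroblast (NB) tumor against wild-type VNCs. Its members are the genes that passed a standard filter on low counts in these 4 bulk RNA-seq libraries, 14162 of the 17494 genes counted. The libraries are pros RNAi 1 and 2 and wild type 1 and 2, out of 6 in the series. In the pros RNAi VNCs a hairpin against prospero (pros) and a UAS-dicer2 transgene were driven by poxn-GAL4, which is active in the few NBs of the thoracic nerve cord that express Poxn, and the labels call this genotype a pros knockdown. The labels give the genotype of the other VNCs only as WT. All 4 libraries are labelled as VNCs of flies aged 6 days, whereas the methods give an older age for the tumor-bearing flies and state that tumor VNCs of females and males were pooled. The methods call the samples of each tumor genotype technical replicates and do not describe the wild-type samples. The p-values below therefore measure the spread between these libraries, which may be technical. The tumors were not sorted from the nerve cord, and each pros RNAi library holds RNA of the tumor and of the VNC around it.

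NBs are the stem cells of the fly central nervous system. They divide asymmetrically, keep a set of self-renewal factors and hand the adaptor Miranda with its cargo, the homeodomain protein Prospero, to the smaller daughter cell, where Prospero enters the nucleus, stops proliferation and starts differentiation. Without Prospero the daughters stay NB-like and go on dividing. NBs also change with age through temporal factors, from an early larval state with Imp and Chinmo to a late one with Syncrip and E93, and in the wild type they are gone from the VNC before adulthood.

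The 2 pros RNAi libraries held 101210908 and 86098417 counts, and the 2 wild-type libraries 108851495 and 115276522. Levels are given as CPM, read counts scaled by the TMM-adjusted size of each library, which are shares of a library and not amounts per VNC. Fewer cells of a type, less RNA per cell and dilution by tumor RNA cannot be told apart in such bulk samples. Below, a fall or a loss means a lower share of the library in this sense. A gene was called changed when its adjusted p-value was under 0.05 in edgeR's quasi-likelihood test, after Benjamini-Hochberg correction for all 14162 genes. By this rule 5935 genes (41.9%) were higher and 5765 (40.7%) lower in pros RNAi than in wild-type VNCs, and 2462 were not called. These shares are the background for every list below. Both tumor libraries lay above both wild-type libraries for 6581 of the 14162 genes and below both for 6497. Groups that did not overlap were thus the rule over all genes. The median log2 fold change over all genes was 0.01, and with library totals alone in place of TMM it was -0.27, so that all changes then lay lower by about that much.

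The log2 fold changes did not form a single hump around 0. Among the 11671 genes at 1 CPM or more in either group, the fullest bin of 0.25 lay between 0.5 and 0.75 with 772 genes, and a separate narrow peak lay between -2.5 and -2.25 with 633 genes. In all, 1846 of these genes (15.8%) had values between -3 and -2. Beyond that the lower side ended quickly, with 268 genes (2.3%) under -3. The upper side ran on, with 648 genes (5.55%) over 3 and 196 (1.68%) over 5. The median of 19 pan-neuronal genes, -2.40, fell within the narrow peak, and 2436 of all 14162 genes (17.2%) had values within 0.5 of it.

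**Figure D1:**
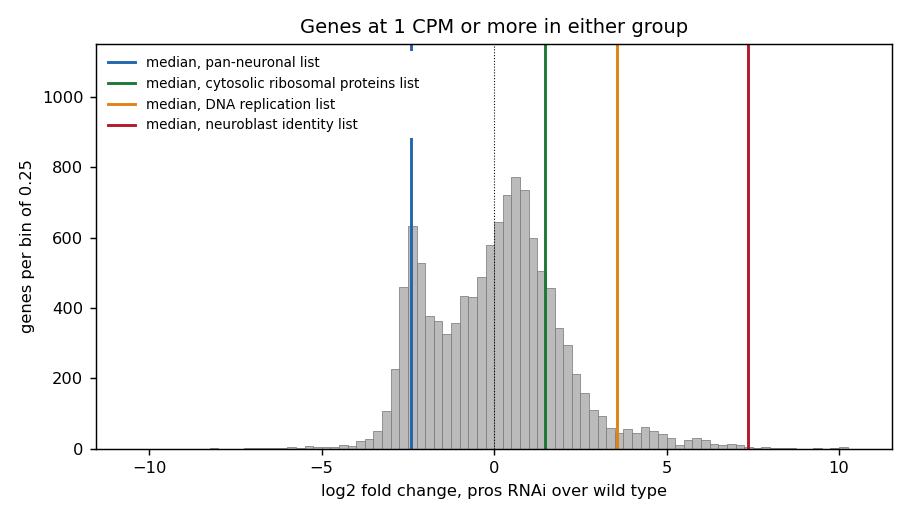
Histogram of the log2 fold change (pros RNAi over wild type) of genes at 1 CPM or more in either group, in bins of 0.25, with vertical lines at the medians of 4 gene lists. The pan-neuronal median of -2.40 stands in the narrow lower peak, the ribosomal protein median of 1.46 on the slope of the broad upper peak, and the NB identity median of 7.36 in the thin upper tail.

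The knockdown target pros (FBgn0004595, positions 11328480 to 11407627 of chromosome arm 3R in Release 6) had 738 and 811 CPM in pros RNAi VNCs, against 2505 and 2332 CPM in wild-type VNCs. Both tumor libraries were below both wild-type libraries, with a log2 fold change of -1.64 (adjusted p = 2.4e-05 in edgeR's quasi-likelihood test, SE 0.09). Any reads of the hairpin, and those of cells outside the driver, count toward this value as well. The fall of pros was smaller than the median fall of the 19 pan-neuronal genes, -2.40. The part of the knockdown in the fall of pros was not tested. The gene that gives the driver its name, Poxn, a Pax family transcription factor, had 109 and 107 CPM in pros RNAi VNCs, against 1.85 and 1.77 CPM in wild-type VNCs, a log2 fold change of 5.89 (SE 0.08). The 2 groups did not overlap for either gene, as for most genes tested.

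All 11 genes of the NB identity list were higher in pros RNAi VNCs, with a median log2 fold change of 7.36. The list's summed level was 3190 and 3029 CPM in pros RNAi, against 24.5 and 21.99 CPM in wild-type VNCs, and every member had both tumor libraries above both wild-type libraries, as had 46.5% of all genes. worniu (wor), a Snail family factor of NBs, had 321 and 281 CPM in pros RNAi VNCs, against 0.364 and 0.189 CPM in wild-type VNCs. miranda (mira), the adaptor that carries Prospero, had 991 and 936 CPM in pros RNAi VNCs, against 4.403 and 3.44 CPM in wild-type VNCs. For both genes the groups were far apart.

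The self-renewal factor deadpan (dpn) had 203 and 201 CPM in pros RNAi VNCs, against 0.737 and 0.499 CPM in wild-type VNCs, a log2 fold change of 8.32 (adjusted p = 4.3e-06 in edgeR's quasi-likelihood test, SE 0.18). Exons of an antisense RNA overlap 59.3% of dpn exon length, and the counting did not use strand. asense (ase), a proneural bHLH factor of most NBs, had 117 and 111 CPM in pros RNAi VNCs, against 0.529 and 0.416 CPM in wild-type VNCs. grainyhead (grh), a transcription factor of postembryonic NBs, had 667 and 625 CPM in pros RNAi VNCs, against 3.59 and 4.22 CPM in wild-type VNCs. For dpn, ase and grh too the groups did not overlap, as for most genes tested.

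nab, a transcriptional cofactor, had the largest fold change of the list and of all genes named by size, with 440 and 446 CPM in pros RNAi VNCs, against 0.589 and 0.166 CPM in wild-type VNCs. Its log2 fold change was 10.16 (SE 0.46), and 9.50 without wild type replicate 2 or 11.21 without wild type replicate 1. The Snail family members escargot (esg) and snail (sna) were lower in level, with means of 19.0 and 12.6 CPM in pros RNAi, against 0.258 and 0.157 CPM in wild-type VNCs. The smallest change of the list was that of klumpfuss (klu), a zinc finger factor, with a log2 fold change of 4.36 (SE 0.09). Its mean was 175 CPM in pros RNAi and 8.53 CPM in wild-type VNCs.

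Genes of asymmetric division moved less and not all one way. Of 14 polarity genes tested, 11 were higher, 2 lower and 1 was not called, with a median log2 fold change of 1.13. mushroom body defect (mud), the fly NuMA that orients the spindle, had 406 and 391 CPM in pros RNAi VNCs, against 6.07 and 2.91 CPM in wild-type VNCs. The log2 fold change of mud was 6.47 (SE 0.38), and 7.08 without wild type replicate 1. bazooka (baz), the fly Par-3, rose by 2.99 on the log2 scale (SE 0.08), to 192 and 200 CPM in pros RNAi VNCs, against 25.7 and 23.7 CPM in wild-type VNCs.

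The cortical tumor suppressor l(2)gl rose by 2.69 (SE 0.08) on the log2 scale, the NHL protein brat by 1.62 (SE 0.06) and partner of inscuteable (pins) by 1.37 (SE 0.07). The basal determinant numb rose by 0.72 (SE 0.06). The atypical protein kinase aPKC was lower, with 161 and 168 CPM in pros RNAi VNCs, against 312 and 324 CPM in wild-type VNCs, and scrib was lower by a log2 fold change of -0.21 (SE 0.07). Inscuteable (insc), which links polarity to the spindle and was listed with the NB identity genes, had 131 and 119 CPM in pros RNAi VNCs, against 2.97 and 2.89 CPM in wild-type VNCs.

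RNA of both early and late larval temporal factors was higher in pros RNAi VNCs. In single cells of such tumors the study found chinmo and Syp RNA in all clusters of cells. RNA of cas, svp and br did not separate Imp from E93 cells there. The study reports control of chinmo after transcription, also from a reporter with the untranslated regions of chinmo. For Syp it proposes such control too, also from immunostaining of the protein. Of 15 early larval temporal genes, 13 were higher and 2 lower, with a median log2 fold change of 2.17, and of 8 late ones 5 were higher, 2 lower and 1 not called, with a median of 0.99. The RNA-binding protein gene Imp had 1686 and 1513 CPM in pros RNAi VNCs, against 121 and 115.03 CPM in wild-type VNCs, a log2 fold change of 3.76 (SE 0.09). chinmo, which encodes a BTB zinc finger factor, had 1263 and 1268 CPM in pros RNAi VNCs, against 239.7 and 234 CPM in wild-type VNCs, a log2 fold change of 2.42 (SE 0.07). For both genes the libraries of a group lay close together and the groups apart.

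Some early factors were nearly absent from the wild type. castor (cas), a zinc finger temporal factor, had 85.9 and 80.4 CPM in pros RNAi VNCs, against 0.433 and 0.340 CPM in wild-type VNCs. The RNA-binding protein gene lin-28 had 10.7 and 10.3 CPM in pros RNAi VNCs, against 0.165 and 0.159 CPM in wild-type VNCs. The nuclear receptor gene svp was present in both, with 118 and 115.1 CPM in pros RNAi VNCs, against 29.6 and 28.2 CPM in wild-type VNCs. The 2 early genes that were lower were Gapdh2, which encodes a glycolytic enzyme, with a log2 fold change of -1.08 (SE 0.06), and the transporter gene E23, with -0.93 (SE 0.10).

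Among the late genes Syncrip (Syp), an RNA-binding protein gene that opposes Imp, had 2072 and 1767 CPM in pros RNAi VNCs, against 699 and 688 CPM in wild-type VNCs. The log2 fold change of Syp was 1.47 (SE 0.10). Broad (br), an ecdysone-induced BTB zinc finger gene, had 369 and 379 CPM in pros RNAi VNCs, against 92.3 and 82.6 CPM in wild-type VNCs. Eip93F, which encodes E93, rose least of the called late genes, with 248 and 243 CPM in pros RNAi VNCs, against 174 and 172 CPM in wild-type VNCs, a log2 fold change of 0.51 (adjusted p = 0.00053 in edgeR's quasi-likelihood test, SE 0.06). With library totals alone it was 0.22 and not called. The largest rise of the late list was that of the unnamed gene CG15646, with a log2 fold change of 9.95 (SE 0.21). The BTB zinc finger gene mamo and the noncoding gene noe were lower, with log2 fold changes of -2.63 (SE 0.11) and -2.22 (SE 0.09).

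Of the embryonic temporal factors all 4 tested were lower, with a median log2 fold change of -2.09. hunchback (hb) had 2.31 and 1.82 CPM in pros RNAi VNCs, against 8.34 and 8.04 CPM in wild-type VNCs, and Krüppel (Kr) had 5.25 and 6.58 CPM in pros RNAi VNCs, against 9.79 and 11.4 CPM in wild-type VNCs. The POU factor nubbin (nub) was lower by a log2 fold change of -2.35 (SE 0.27).

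**Figure D2:**
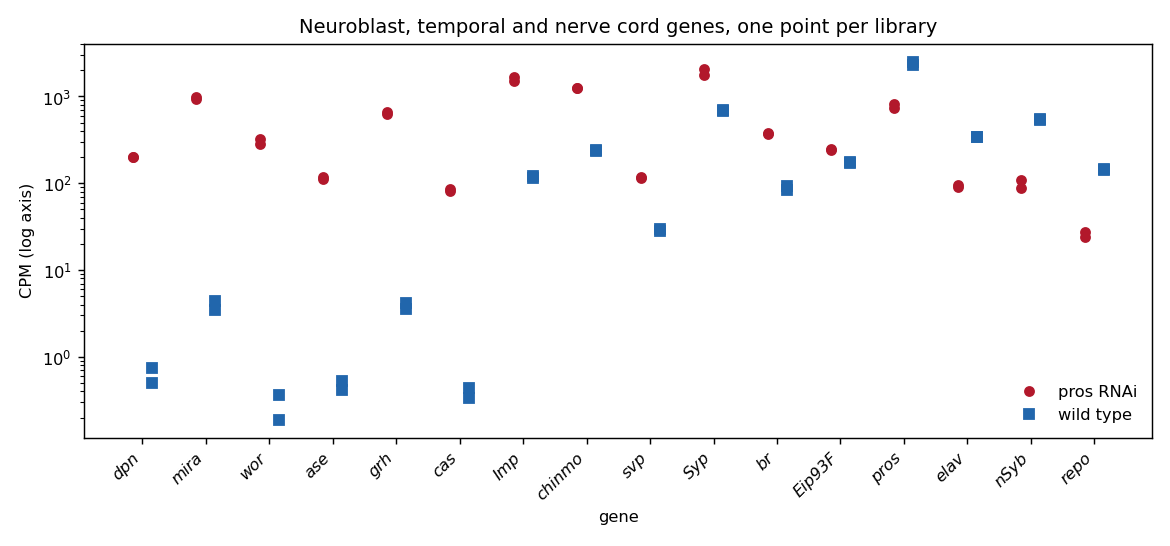
CPM (log axis) of NB, temporal and nerve cord genes, with circles for the 2 pros RNAi libraries and squares for the 2 wild-type libraries. The NB genes dpn, mira, wor, ase and grh and the temporal gene cas are at 80.4 CPM or more in pros RNAi and under 4.5 CPM in wild-type VNCs, whereas pros, elav, nSyb and repo are lower in pros RNAi.

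The 3 gene clusters that the study had ordered along pseudotime in single cells of such tumors also differed. Of 18 genes in the third cluster 17 were higher and 1 lower, with a median log2 fold change of 3.08. The second cluster had 54 higher and 12 lower of 70, with a median of 1.14, and the first had 65 higher and 40 lower of 111, with a median of 0.85. The first cluster also holds nrv2, a sodium pump subunit gene of the glial list, lower by a log2 fold change of -2.44 (SE 0.09), and the glycolytic gene Gapdh2.

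Factors that guard differentiation were split. nerfin-1, a zinc finger gene that keeps young neurons from reverting, had 22.8 and 14.8 CPM in pros RNAi VNCs, against 0.927 and 0.922 CPM in wild-type VNCs. lola, a BTB zinc finger gene, rose by 1.25 on the log2 scale (SE 0.07). ttk and onecut were lower, with log2 fold changes of -1.34 (SE 0.07) and -1.31 (SE 0.07), as was pros itself. Of these 5 genes 2 were thus higher (40%) and 3 lower (60%), against 41.9% and 40.7% of all genes.

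The Notch pathway can promote the self-renewal of NBs. Of 8 genes of the pathway 5 were higher, 0 lower and 3 not called, with a median log2 fold change of 1.12. The receptor Notch (N) had 675 and 713 CPM in pros RNAi VNCs, against 159 and 155 CPM in wild-type VNCs. Its ligand Delta (Dl) had 109.5 and 96.3 CPM in pros RNAi VNCs, against 3.72 and 2.84 CPM in wild-type VNCs, a log2 fold change of 4.97 (SE 0.16). neuralized (neur), the ubiquitin ligase for Delta, rose by 3.27 (SE 0.07), whereas the other ligand Serrate (Ser) had a log2 fold change of -0.09 and was not called.

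The Enhancer of split genes, which Notch activates, were all higher among the 10 of 11 that passed the filter. Their median log2 fold change was 3.66, and it was 2.77 without wild type replicate 2 and 4.51 without pros RNAi replicate 2, and most members were near 0 in the wild type. E(spl)mgamma-HLH, the member best known from NBs, had 30.9 and 27.2 CPM in pros RNAi VNCs, against 0.0347 and 0.0151 CPM in wild-type VNCs, where these values stand for 4 and 2 counts. Hey, another Notch target, had 0.853 and 0.401 CPM in pros RNAi VNCs, against 0.789 and 0.604 CPM in wild-type VNCs, and the groups overlapped. From single cells of such tumors, the study proposes that Enhancer of split genes mark NBs that do not divide and may be quiescent.

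In direction, though not in size of change, genes of mitosis and replication were among the most uniform. All 33 mitosis genes were higher, with a median log2 fold change of 4.25, and 37 of 38 replication genes, with a median of 3.56. polo, which encodes a mitotic kinase, had 319.5 and 307 CPM in pros RNAi VNCs, against 4.48 and 2.15 CPM in wild-type VNCs. Mcm2, a subunit of the replicative helicase, had 171 and 168 CPM in pros RNAi VNCs, against 3.18 and 1.63 CPM in wild-type VNCs. The sliding clamp gene PCNA had 121 and 117 CPM in pros RNAi VNCs, against 2.75 and 1.76 CPM in wild-type VNCs. All 3 genes were apart between the groups, as were most genes tested. The replication gene that was lower, Psf3, had a log2 fold change of -1.39 (SE 0.07), and exons of another gene overlap 34.9% of its exon length.

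Of 20 cell cycle regulators 16 were higher, 3 lower and 1 not called. Cyclin E (CycE), which starts S phase, had 193 CPM in each pros RNAi library, against 8.75 and 6.04 CPM in wild-type VNCs, a log2 fold change of 4.70 (SE 0.19). The phosphatase gene string (stg), which starts mitosis, had 59.9 and 56.5 CPM in pros RNAi VNCs, against 4.204 and 2.12 CPM in wild-type VNCs. The largest change was that of Cks30A, a partner of Cdk1, with 163 and 149.8 CPM in pros RNAi VNCs, against 0.693 and 0.521 CPM in wild-type VNCs. The other Cks gene, Cks85A, was lower, with a log2 fold change of -0.73 (SE 0.08), although exons of another gene overlap 74.9% of it. The APC activator fzr was lower by -0.30 (SE 0.08), and the Cdk inhibitor dacapo (dap) rose by 1.44 (SE 0.09).

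Within the wild type, library 1 held more RNA of many division genes than library 2. Cyclin A (CycA) had 217 and 199 CPM in pros RNAi VNCs, against 16.3 and 8.47 CPM in wild-type VNCs and Cyclin B (CycB) had 139.8 and 127 CPM in pros RNAi VNCs, against 29.4 and 13.9 CPM in wild-type VNCs. Ovary genes moved with them, and yolkless (yl), the yolk receptor of oocytes, had 0.238 and 0.647 CPM in pros RNAi VNCs, against 19.3 and 8.70 CPM in wild-type VNCs. The part of ovary RNA in these levels was not tested. Without wild type replicate 1 the log2 fold changes were 3.25 for CycB, 6.30 for Cdk1 and 7.17 for polo, against 2.62, 5.52 and 6.56 with all 4 libraries.

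The histone genes of the replication-dependent cluster were higher in all 111 copies tested, with a median log2 fold change of 4.78 and a summed level of 15752 and 13520 CPM in pros RNAi, against 406 and 433 CPM in wild-type VNCs. The copies are nearly identical and only uniquely mapped reads were counted, so the split among copies is uncertain. These RNAs also lack a poly(A) tail, and the libraries were made by depletion of ribosomal RNA.

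Genes of cell growth rose together. Of 18 genes of the nucleolus and RNA polymerase I, 17 were higher, 0 lower and 1 not called, with a median log2 fold change of 2.30. Myc, the growth regulator upstream of many of them, had 947 and 905 CPM in pros RNAi VNCs, against 179 and 216 CPM in wild-type VNCs, although exons of another gene overlap 61.2% of its own. Fibrillarin (Fib), the methylase of box C/D snoRNPs, had 134 and 122 CPM in pros RNAi VNCs, against 9.94 and 8.76 CPM in wild-type VNCs. Nop60B, the pseudouridine synthase of box H/ACA snoRNPs, rose by 3.76 on the log2 scale (SE 0.07).

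Of 87 cytosolic ribosomal protein genes tested, 84 were higher and 3 lower, with a median log2 fold change of 1.46 and a summed level of 99771 and 98174 CPM in pros RNAi, against 34159 and 36111 CPM in wild-type VNCs. RpL3 had 3267 and 3288 CPM in pros RNAi VNCs, against 1006 and 1072 CPM in wild-type VNCs. The largest fall was that of the germline paralog RpS5b, with 0.367 and 0.479 CPM in pros RNAi VNCs, against 5.99 and 2.62 CPM in wild-type VNCs. It was higher in wild type replicate 1, like the ovary genes, and its log2 fold change was -3.29 with and -2.59 without that library.

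Of 265 snoRNA genes tested 217 were higher, 24 lower and 24 not called, with a median log2 fold change of 1.81, and their sum was 4184 and 5838 CPM in pros RNAi, against 1171 and 1263 CPM in wild-type VNCs. Of 32 aminoacyl-tRNA synthetase genes 26 were higher and 4 lower (median 1.03), led by IleRS with a log2 fold change of 2.56 (SE 0.07). The mitochondrial PheRS-m was lower, by -0.97 (SE 0.06). Of 39 proteasome genes tested 33 were higher and 4 lower (median 0.98). Mitochondrial ribosomal proteins were less uniform, with 45 higher, 8 lower and 20 not called of 73 (median 0.42).

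The largest gain in CPM was that of the long noncoding RNA CR43283 (FBgn0262972, also known as cherub, chromosome 3R from 11247631 to 11256123). It had 29653 and 26398 CPM in pros RNAi VNCs, against 41.7 and 22.4 CPM in wild-type VNCs, a log2 fold change of 9.77 (adjusted p = 1.2e-05 in edgeR's quasi-likelihood test, SE 0.42). Its end lies 72356 bases before the start of pros on the same arm.

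Other large gains were short RNAs made by RNA polymerase III and genes of translation. The RNA of RNase MRP, which cuts the ribosomal RNA precursor, had 5180 and 5489 CPM in pros RNAi VNCs, against 634 and 603 CPM in wild-type VNCs for RNaseMRP:RNA. The elongation factor gene eEF1alpha1 had 5298 and 4884 CPM in pros RNAi VNCs, against 1099 and 1100 CPM in wild-type VNCs. eEF2 and pAbp, which encode an elongation factor and the poly(A)-binding protein, rose by 1.32 (SE 0.08) and 1.51 (SE 0.09) on the log2 scale.

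The snRNA:7SK gene, whose RNA restrains transcription elongation, rose by 0.45 (SE 0.09), but was not called with library totals alone (0.16), and MRE16 by 1.73 (SE 0.14). The 2 genes of the 7SL RNA of the signal recognition particle were uneven. 7SLRNA:CR42652 had 10261 and 35493 CPM in pros RNAi VNCs, against 6745 and 4427 CPM in wild-type VNCs, and its log2 fold change of 2.03 (SE 0.59) was 2.68 without pros RNAi replicate 1 and 0.88 without pros RNAi replicate 2, and it was not called without wild type replicate 2 (1.76). 7SLRNA:CR32864 had a log2 fold change of 0.40 (SE 0.16) and was not called, but 5 alternatives called it.

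**Figure D3:**
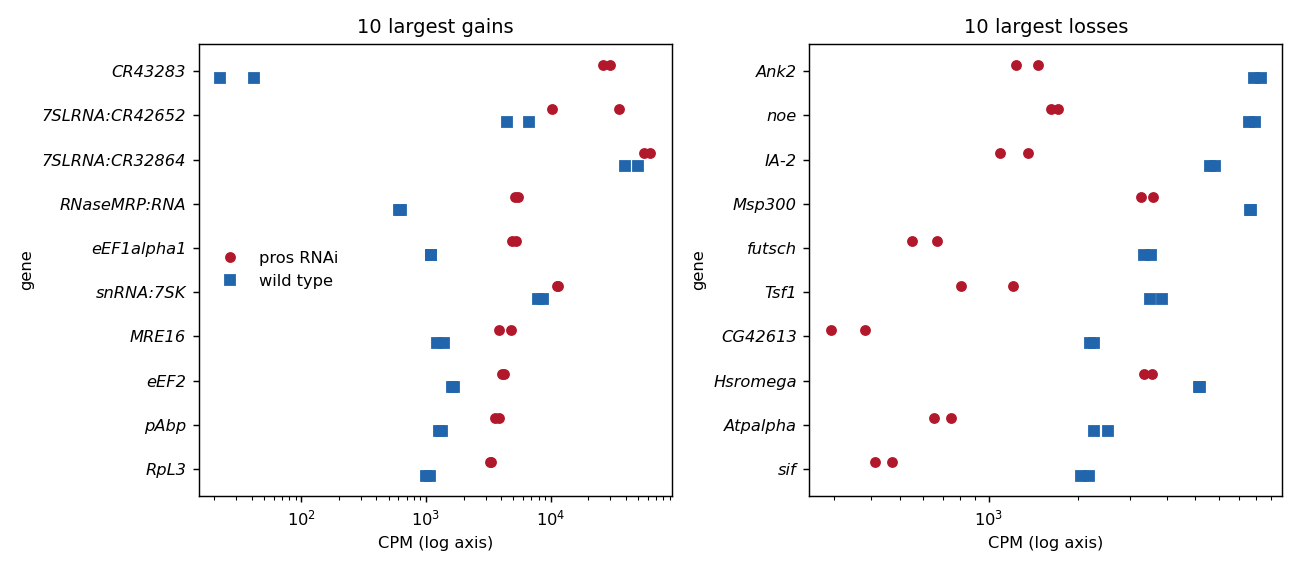
CPM (log axes) of the 10 genes with the largest gain (left) and the 10 with the largest loss (right) in mean CPM, with circles for pros RNAi and squares for wild-type libraries and with ribosomal RNA and mitochondrial genes left out. CR43283 stands apart from the other gains, with 29653 and 26398 CPM in pros RNAi, against 41.7 and 22.4 CPM in wild-type VNCs, and the losses are led by Ank2 and noe.

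Beside nab, wor and CR43283, the 10 largest fold changes upward held E(spl)mgamma-HLH, 3 unnamed genes and others. Pex7, the import receptor of peroxisomes, had 784 and 719 CPM in pros RNAi VNCs, against 0.927 and 0.438 CPM in wild-type VNCs. tap, a bHLH gene first found as a target of Poxn, had 251 and 231 CPM in pros RNAi VNCs, against 0.572 and 0.552 CPM in wild-type VNCs. The unnamed genes CG13305, CG15646 and CG12708 had means of 128, 222 and 191 CPM in pros RNAi, against 0.0958, 0.203 and 0.255 CPM in wild-type VNCs. Of these, CG15646 belongs to the late larval temporal list and CG13305 to the first pseudotime cluster. The noncoding gene CR31386 had a log2 fold change of 8.73 (SE 0.29). Without wild type replicate 1 the values of CG13305 and Pex7 were 10.77 and 10.67, against 10.15 and 10.08 with all libraries.

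Of 13 Polycomb group genes, which keep developmental genes silent, 11 were higher, 1 lower and 1 not called, with a median log2 fold change of 1.22. Posterior sex combs (Psc) had 73.8 and 81.9 CPM in pros RNAi VNCs, against 7.25 and 7.28 CPM in wild-type VNCs, whereas its neighbour and paralog Su(z)2 had 25.7 and 27.7 CPM in pros RNAi VNCs, against 45.2 and 46.5 CPM in wild-type VNCs. The methyltransferase gene E(z) rose by 1.66 (SE 0.08). All 6 Hsp70 genes were higher (median 2.48), but they are near-identical copies. The small heat shock gene Hsp27 rose by 4.29 (SE 0.11), to 244 and 225 CPM in pros RNAi VNCs, against 10.99 and 12.96 CPM in wild-type VNCs.

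Of 22 genes of stress, damage and cell death tested 10 were higher, 6 lower and 6 not called, with a median log2 fold change of 0.29, and the higher ones included Hsp27 and the small heat shock genes Hsp22, Hsp23 and Hsp26. Of the clustered death genes grim rose by 2.09 (SE 0.21) with 75.9% of its exon length overlapped by another gene, hid was lower by -2.12 (SE 0.17) and rpr, at 1.31 and 1.71 CPM in pros RNAi and 1.35 and 1.42 CPM in wild-type VNCs, was not called. Mmp2, a matrix metalloproteinase gene, had 13.2 and 15.7 CPM in pros RNAi VNCs, against 70.7 and 70.9 CPM in wild-type VNCs.

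Genes of energy metabolism were mostly lower. Of 12 glycolytic genes 10 were lower, 0 higher and 2 not called, with a median log2 fold change of -1.09. Aldolase (Ald) had 207 and 229 CPM in pros RNAi VNCs, against 824 and 819.8 CPM in wild-type VNCs. The lactate dehydrogenase gene ImpL3 was not called, with 15.7 and 18.6 CPM in pros RNAi VNCs, against 13.7 and 15.4 CPM in wild-type VNCs. Of 13 TCA cycle genes 11 were lower and 0 higher (median -0.998), with the largest fall in malate dehydrogenase 2 (Mdh2), at 43.9 and 43.8 CPM in pros RNAi VNCs, against 180.2 and 175 CPM in wild-type VNCs.

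Of 69 nuclear genes of the respiratory chain 61 were lower and 2 higher, with a median log2 fold change of -0.70. The mitochondrial genome fell further, with 36 of 37 genes lower, 0 higher, and a median of -1.77. Cytochrome oxidase subunit I (mt:CoI) had 3448 and 3588 CPM in pros RNAi VNCs, against 13848 and 15698 CPM in wild-type VNCs. Mitochondrial genes took 1.29% and 1.23% of the counts in pros RNAi, against 3.97% and 4.94% in wild-type libraries. The medians of all 4 metabolic lists were nearer to 0 than that of the pan-neuronal list, -2.40, and no test of this difference was run.

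All 19 pan-neuronal genes were lower in pros RNAi VNCs, and 13 of them lay within 0.5 of the median of -2.40. The list's summed level was 3686 and 4149 CPM in pros RNAi, against 15420 and 15275 CPM in wild-type VNCs. The synaptic vesicle protein gene nSyb had 88.4 and 108 CPM in pros RNAi VNCs, against 548 and 531 CPM in wild-type VNCs, a log2 fold change of -2.46 (adjusted p = 1.4e-05 in edgeR's quasi-likelihood test, SE 0.11). bruchpilot (brp), a scaffold of the active zone, had 144 and 174 CPM in pros RNAi VNCs, against 868 and 814 CPM in wild-type VNCs. Synaptotagmin 1 (Syt1), the calcium sensor of release, had 222 and 264 CPM in pros RNAi VNCs, against 1364 and 1359 CPM in wild-type VNCs. Neuronal genes were a little lower in pros RNAi replicate 1 than in replicate 2, and both were far below the wild type.

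Some neuronal genes fell by less. elav, the classical neuronal RNA-binding protein gene, had 91.7 and 96.6 CPM in pros RNAi VNCs, against 337 and 341 CPM in wild-type VNCs, a log2 fold change of -1.85 (SE 0.07). The microtubule regulator stathmin (stai) and the vesicle chaperone Csp had the smallest falls of the list, with log2 fold changes of -0.53 (SE 0.08) and -0.57 (SE 0.06). The priming factor unc-13 had 1194 and 1276 CPM in pros RNAi VNCs, against 2261 and 2366 CPM in wild-type VNCs. The presynaptic calcium channel gene cac, from the list of channels, had 407 and 466 CPM in pros RNAi VNCs, against 662 and 679.9 CPM in wild-type VNCs, and its change of -0.62 (SE 0.09) was the smallest of the 18 channel genes.

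The other neuronal lists fell by similar amounts. All 15 genes of transmitter synthesis and vesicle loading were lower (median -2.66), as were all 18 voltage-gated channel genes (median -2.47), all 10 nicotinic receptor genes (median -2.03) and 17 of 18 GABA and glutamate receptor genes (median -2.34). The vesicular glutamate transporter VGlut had 165 and 199 CPM in pros RNAi VNCs, against 1154 and 1145 CPM in wild-type VNCs. Gad1, which makes GABA, had 158 and 183 CPM in pros RNAi VNCs, against 1151 and 1177 CPM in wild-type VNCs. The acetylcholine transporter VAChT had 78.1 and 89.0 CPM in pros RNAi VNCs, against 395 and 394 CPM in wild-type VNCs. RNA of these 3 genes was thus lower, and Tdc2, which acts in octopamine synthesis, had the smallest fall of its list, -1.51 (SE 0.08).

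Of 30 genes of the dpr and DIP recognition families 28 were lower, 1 higher and 1 not called (median -2.44), and 26 of the 30 lay within 0.5 of the pan-neuronal median. DIP-alpha was the member that was higher, with 78.5 and 96.6 CPM in pros RNAi VNCs, against 53.0 and 56.3 CPM in wild-type VNCs. Of 25 neuropeptide genes tested 19 were lower, 2 higher and 4 not called (median -2.39). Allatostatin A (AstA) had 9.48 and 14.1 CPM in pros RNAi VNCs, against 116 CPM in each wild-type library. The 2 that were higher were Drosulfakinin (Dsk), with 2.46 and 1.85 CPM in pros RNAi VNCs, against 0.026 and 0.068 CPM in wild-type VNCs, and amnesiac (amn), with a log2 fold change of 1.37 (SE 0.07). Of 10 clock genes 9 were lower (median -2.29), and cycle (cyc) rose by 0.43 (SE 0.07), but was not called with library totals alone (0.15).

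Neuronal fate factors were lower in 13 of 16 cases (median -1.56). The exceptions included ftz, a homeobox gene of segmentation and of young neurons, with 16.7 and 22.8 CPM in pros RNAi VNCs, against 0.0433 and 0.0529 CPM in wild-type VNCs, and eagle (eg), a nuclear receptor gene, with 3.62 and 3.27 CPM in pros RNAi VNCs, against 0.0173 and 0.0907 CPM in wild-type VNCs. unc-4 fell by 0.78 on the log2 scale (SE 0.11) and engrailed (en) by 2.77 (SE 0.40), and en fell by 3.45 without pros RNAi replicate 2.

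Hox genes, which give segments their identity, were lower in 6 of 7 tested cases (median -2.26). Antennapedia (Antp), the Hox gene of the middle thorax, was the exception, with 202 and 196 CPM in pros RNAi VNCs, against 131 and 127 CPM in wild-type VNCs, a log2 fold change of 0.63 (adjusted p = 0.00023 in edgeR's quasi-likelihood test, SE 0.06). Ultrabithorax (Ubx) had 8.20 and 9.35 CPM in pros RNAi VNCs, against 40.9 and 43.0 CPM in wild-type VNCs. abd-A, a Hox gene of the abdomen, had 3.99 and 5.24 CPM in pros RNAi VNCs, against 32.9 and 33.1 CPM in wild-type VNCs. For all 3 genes the groups did not overlap, as for most genes tested.

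Of 20 glial genes 19 were lower and 1 higher, with a median log2 fold change of -2.37, close to the neuronal median, and a summed level of 1131 and 1260 CPM in pros RNAi, against 4601 and 4632 CPM in wild-type VNCs. repo, the glial fate gene, had 24.1 and 27.3 CPM in pros RNAi VNCs, against 146 and 142 CPM in wild-type VNCs. The astrocyte gene alrm had 32.7 and 33.4 CPM in pros RNAi VNCs, against 185 and 195 CPM in wild-type VNCs. The blood-brain barrier receptor moody fell less, with a log2 fold change of -1.40 (SE 0.14).

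The glutamate transporter gene Eaat1 stood out from the glial list, with 294 and 285 CPM in pros RNAi VNCs, against 326 and 332 CPM in wild-type VNCs. Its log2 fold change of -0.18 (SE 0.06) passed the threshold with an adjusted p of 0.037 in edgeR's quasi-likelihood test, and it missed the threshold in 6 of the alternatives. The septate junction gene Nrx-IV had a log2 fold change of -0.28 (SE 0.06), and the glucosyltransferase gene GlcT-1 was the member that was higher, with 28.2 and 28.9 CPM in pros RNAi VNCs, against 17.6 and 15.9 CPM in wild-type VNCs. The largest fall was that of the transporter gene CG9657, with 3.86 and 5.12 CPM in pros RNAi VNCs, against 62.5 and 65.4 CPM in wild-type VNCs.

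**Figure D4:**
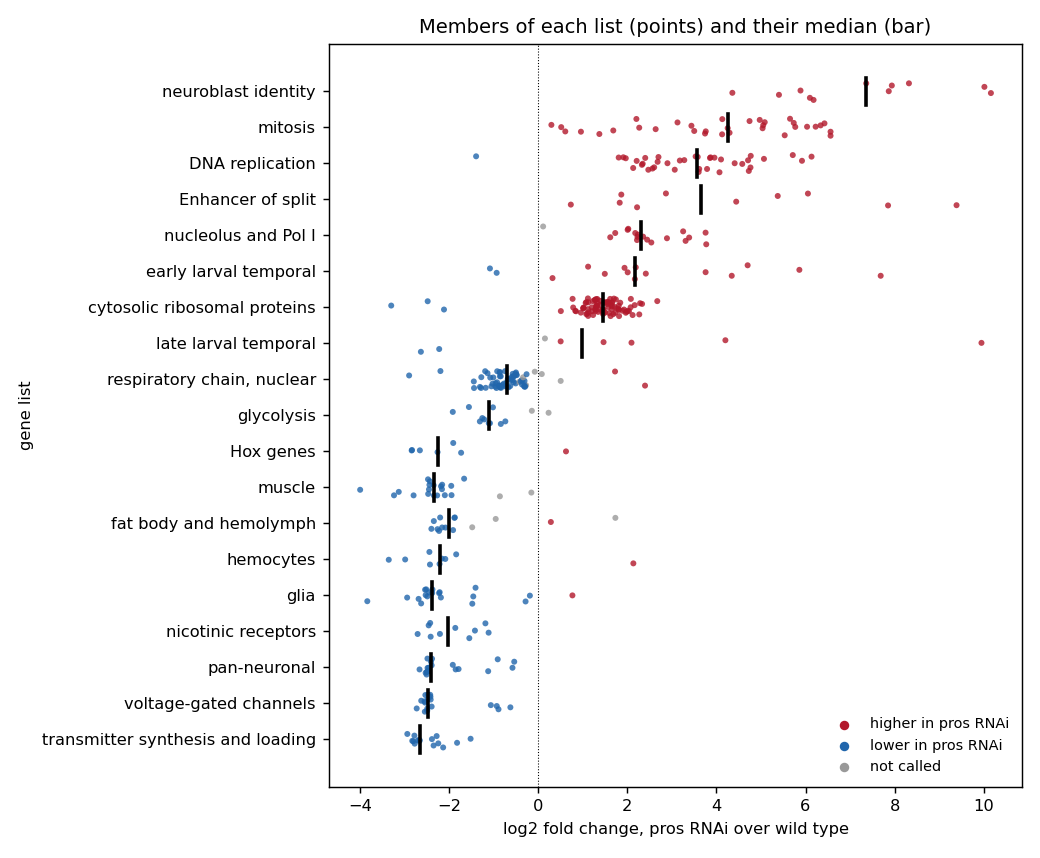
Log2 fold change (pros RNAi over wild type) of each member of 19 gene lists, 1 row per list, with points coloured by call and a bar at the list's median. NB, division and growth lists lie to the right of 0, metabolic lists slightly to the left, and the neuronal, glial, muscle and blood lists around -2.03 to -2.66.

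Markers of tissues outside the nervous system were present in all libraries and were mostly lower in pros RNAi VNCs. Of 21 muscle genes 19 were lower and 0 higher (median -2.34), with a summed level of 339 and 329 CPM in pros RNAi, against 1105 and 1537 CPM in wild-type VNCs. The myosin heavy chain gene Mhc had 30.2 and 26.2 CPM in pros RNAi VNCs, against 120.3 and 192 CPM in wild-type VNCs. Of 9 hemocyte genes 8 were lower and 1 higher (median -2.21), and Hemolectin (Hml) had 10.9 and 7.72 CPM in pros RNAi VNCs, against 78.2 and 112 CPM in wild-type VNCs. Of 6 tracheal genes 4 were lower (median -1.11), with sums of 10.2 CPM in each pros RNAi library, against 30.3 and 32.8 CPM in wild-type VNCs. Of 8 eye genes 6 were lower and 0 higher (median -2.08), and the opsin gene ninaE had 1.43 and 2.97 CPM in pros RNAi VNCs, against 28.2 and 19.6 CPM in wild-type VNCs. Without pros RNAi replicate 2 the median of the eye list was -2.997 and the value of ninaE -4.05, against -3.45 with all libraries. The part of dissected neighbouring tissue in these results was not tested.

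Of 14 fat body and hemolymph genes tested 10 were lower, 1 higher and 3 not called (median -1.99), with a summed level of 3372 and 3150 CPM in pros RNAi, against 11044 and 10535 CPM in wild-type VNCs. apolpp, the lipoprotein precursor gene, had 428 and 411 CPM in pros RNAi VNCs, against 2000 and 1912 CPM in wild-type VNCs. The storage protein gene Lsp2 was uneven, with 132 and 39.6 CPM in pros RNAi VNCs, against 396 and 249 CPM in wild-type VNCs. Exons of an antisense RNA overlap 84.6% of Lsp2 exon length. Without pros RNAi replicate 1 the log2 fold change was -3.01 for Lsp2, against -1.91 with all libraries, and the median of the list was -2.60. Lsp2 was not called without wild type replicate 1 (-1.54).

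Yolk protein genes, which females express, were lower too, and Yp1 had 407 and 285 CPM in pros RNAi VNCs, against 1686 and 1623 CPM in wild-type VNCs. Exons of an antisense RNA overlap 54.3% of Yp1 exon length. roX1, a noncoding RNA of the male dosage compensation complex, had 2749 and 2666 CPM in pros RNAi VNCs, against 946 and 939 CPM in wild-type VNCs, while roX2 had 152 and 92.3 CPM in pros RNAi VNCs, against 105 and 112 CPM in wild-type VNCs and overlapped between the groups. The 2 roX genes were looked up after the results were seen. The sources used here do not give the sexes of the wild-type flies, and their part in these values was not tested.

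Antimicrobial peptide genes were set apart by a single library. Of 15 tested 10 were called lower, 1 higher and 4 not called, with sums of 17.2 and 15.5 CPM in pros RNAi, against 11.5 CPM in wild type replicate 1 and 121 CPM in wild type replicate 2. Diptericin B (DptB) had 0.259 and 0.0259 CPM in pros RNAi VNCs, against 0.607 and 21.1 CPM in wild-type VNCs. Its log2 fold change of -6.01 (SE 1.90) was -1.90 without wild type replicate 2, and with any library but wild type replicate 1 left out it was no longer called. AttC had a log2 fold change of -5.33 (SE 1.59), which was -1.76 without wild type replicate 2, and it was not called without either pros RNAi library. The list's median was -0.76 without that library, against -2.03 with it. CecC, a cecropin gene, was higher in tumors with or without it, with 6.02 and 7.05 CPM in pros RNAi VNCs, against 0.139 and 0.771 CPM in wild-type VNCs, a log2 fold change of 3.77 that was 3.04 without wild type replicate 1 and 5.36 without wild type replicate 2.

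Of 10 germline genes tested 4 were higher, 4 lower and 2 not called, with a median log2 fold change of 0.04 that was -0.24 with library totals alone. bag of marbles (bam), which starts germ cell differentiation, had 20.9 and 21.9 CPM in pros RNAi VNCs, against 0.303 and 0.219 CPM in wild-type VNCs, and the germline innexin zpg had 6.56 and 7.45 CPM in pros RNAi VNCs, against 2.01 and 1.03 CPM in wild-type VNCs. vasa (vas), a defining germline gene, went the other way, with 0.0432 and 0.310 CPM in pros RNAi VNCs, against 4.38 and 2.02 CPM in wild-type VNCs, a log2 fold change of -4.08 that lay between -5.72 and -3.27 when single libraries were left out. BicC, a gene of the ovary, was among the 10 largest falls, with 0.162 and 0.323 CPM in pros RNAi VNCs, against 14.4 and 6.29 CPM in wild-type VNCs, and its reads are shared almost wholly with CG45084. Its log2 fold change was -5.33 (SE 0.57), and -4.61 without wild type replicate 1.

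**Figure D5:**
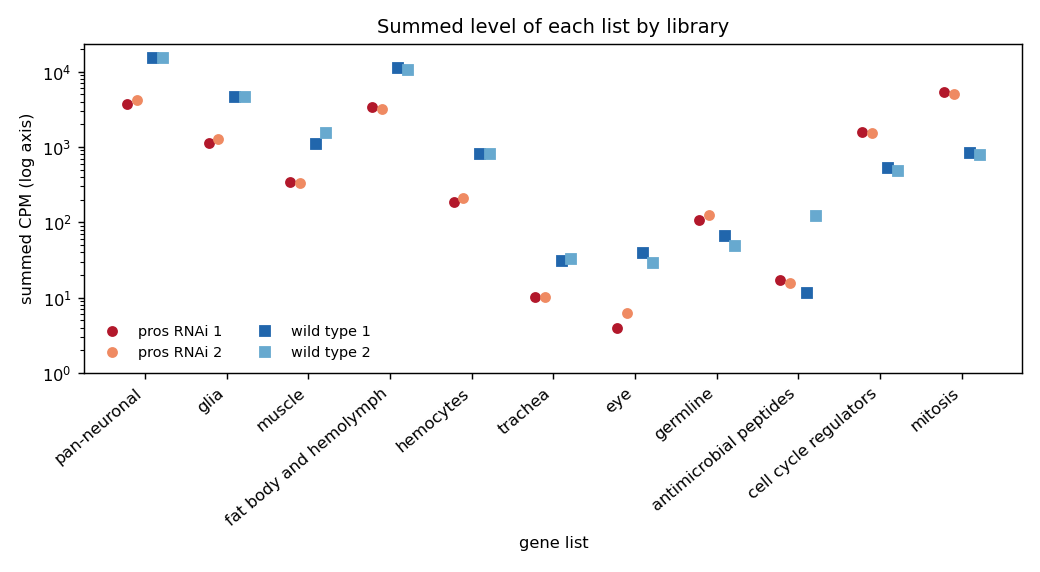
Summed CPM (log axis) of the members of 11 gene lists in each library, with circles for pros RNAi 1 and 2 and squares for wild type 1 and 2. Nervous system, muscle, fat body and hemocyte sums are lower in both pros RNAi libraries, the sum of the antimicrobial peptides is high in wild type 2 alone, at 121 CPM, and cell cycle and mitosis sums are higher in pros RNAi.

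With ribosomal RNA and mitochondrial genes left out, the largest losses in CPM were led by Ank2 and noe. Ankyrin 2 (Ank2), which anchors membrane proteins of axons, had 1237 and 1466 CPM in pros RNAi VNCs, against 8329 and 7886 CPM in wild-type VNCs. The noncoding gene noe had 1624 and 1713 CPM in pros RNAi VNCs, against 7568 and 7964 CPM in wild-type VNCs. futsch, the fly MAP1B, had 550 and 668 CPM in pros RNAi VNCs, against 3537 and 3357 CPM in wild-type VNCs. These 3 genes fell by log2 fold changes of -2.58, -2.22 and -2.50 (SE 0.12, 0.09 and 0.12), all between -3 and -2. Msp300, a nesprin, and the stress-linked noncoding gene Hsromega fell by less, with -1.16 (SE 0.09) and -0.58 (SE 0.08), and both kept 3282 CPM or more in pros RNAi VNCs. Hsromega was not called with all 6 libraries in a single fit.

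The sodium pump gene Atpalpha (log2 fold change -1.78, SE 0.11) and the transferrin gene Tsf1 (-1.87, SE 0.20) were also among the 10 largest losses in CPM. IA-2, a receptor-type phosphatase of dense core vesicles, had 1088 and 1357 CPM in pros RNAi VNCs, against 5844 and 5618 CPM in wild-type VNCs. CG42613 and sif, a Rac exchange factor gene, were the last of the 10 largest losses, with overlaps of their exons by other genes of 63.4% and 72.1%.

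A few genes fell far beyond the narrow peak and in both tumor libraries alike. CG3842 had 0.292 and 0.388 CPM in pros RNAi VNCs, against 48.9 and 45.6 CPM in wild-type VNCs, a log2 fold change of -7.05 (adjusted p = 4.2e-06 in edgeR's quasi-likelihood test, SE 0.13). MFS9, which belongs to the major facilitator family of transporters, had 1.70 and 1.71 CPM in pros RNAi VNCs, against 81.5 and 73.0 CPM in wild-type VNCs. CG9377 had 1.90 and 2.03 CPM in pros RNAi VNCs, against 74.8 and 74.0 CPM in wild-type VNCs. For all 3 the wild-type libraries were alike and the groups far apart. CG33296 had a log2 fold change of -5.34 (SE 0.27). The genes CG12256 and asRNA:CR43477, both at -5.85, overlap each other over 85.1% and 92.0% of their exon length and cannot be told apart. In all, 58 genes at 1 CPM or more in either group had a log2 fold change under -4.

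Few genes were found on a single side. With at most 3 counts in both libraries of a group and at least 100 counts in both of the other, 11 genes were found in pros RNAi alone and 7 in wild-type VNCs alone. The first count was 17 without pros RNAi replicate 2 and 19 without wild type replicate 2, and the second was 19 without pros RNAi replicate 1 and 14 without pros RNAi replicate 2. Leaving a library out can only keep or raise these counts, because fewer libraries must then meet the rule. E(spl)m8-HLH was found in pros RNAi alone, with 725 and 366 counts in pros RNAi VNCs, against 2 and 0 counts in wild-type VNCs. CG13428 was found in the wild type alone, with 0 counts in both pros RNAi libraries, against 665 and 774 counts in wild-type VNCs. With its floor of 3 counts per library, CG13428 was at least 163-fold lower in pros RNAi VNCs. Both genes were chosen after their values were seen.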

How the data were processed

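Total RNA of the VNCs was depleted of ribosomal RNA before stranded libraries were made, although a label also names polyA RNA. The authors processed the reads with bcl2fastq 2.17.1.14, aligned them with Subread and counted uniquely mapped reads on exons with featureCounts 1.5.0 and FlyBase annotation 6.19, without strand or read pairing and giving a read to every gene it overlapped. The labels name an older build, but positions matched Release 6 for 99.3% of the symbols found. The deposited values are these raw counts. Exons of 5431 genes overlap another gene.

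Counts were tested in R 4.3.3 with edgeR 4.0.16 (filterByExpr with a minimum count of 10, TMM, quasi-likelihood test, prior count 2, Benjamini-Hochberg adjustment), and with DESeq2 1.42.0 as an alternative. The script was tested on simulated data. The unstranded counting of overlapping genes, and 14.6% to 23.4% of counts from ribosomal RNA, bear on the levels. The 2 pros Syp RNAi libraries entered an alternative fit and the observations.

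The genes and lists were chosen with earlier results of these data known. Genes were named by rule: pros, the 10 largest fold changes in each direction among called genes with 10 CPM or more in the higher group and groups that do not overlap, the 10 largest gains and losses in CPM outside ribosomal RNA and mitochondrial genes, preset genes of each list, the called member that moved most in each direction, and members that show a range. The genes yl and mt:CoI were chosen after their values were seen, and Poxn, ey and toy were added outside these rules. The alternatives were other scalings, filters, thresholds, tests and sample sets, the replicate block, overlapping genes left out, and each library left out in turn. Sequences were not used here.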

Additional observations from a re-analysis of the deposited data

How the results depend on the processing

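Of 11700 calls, 0 turned to the opposite direction in any of the alternatives run. Counts of genes higher and lower were within 1.5 times of 5935 and 5765 except for these. At an adjusted p under 0.001, 3522 were lower, outside that range, and 4213 higher, within it. With a fold of at least 2 added to the threshold, 3735 were higher, outside it, and 4468 lower, within it. With overlapping genes left out, 3607 of the 9008 genes tested were higher and 3700 lower, both outside it. Without a library in turn the counts were 5444 to 5771 higher and 5057 to 5481 lower, the log2 fold change of pros was -1.71 to -1.56, and 11 to 19 genes were found in pros RNAi alone and 8 to 19 in the wild type alone. The counts of genes found on a single side can only stay or rise when a library is left out, as fewer libraries must meet the rule. The replicate block gave 5748 higher and 5526 lower. Among the genes named it changed the calls of DptB (-4.56), Eaat1 (-0.18), ImpL3 (0.23), eve (-1.53) and He (-2.24). Same-numbered deviations correlated at -0.24 across 14162 genes. With 2 libraries a group, this value cannot show whether the numbers pair the libraries. The crossed pairing, chosen after seeing the data, gave 5872 higher and 5719 lower.

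Of 2620 comparisons of named or preset genes with an alternative, 2536 kept direction and side of the threshold, 56 lost and 14 gained the call, and 14 changed sign. With library totals alone these were ImpL3 (-0.053), rpr (-0.17), FASN1 (-0.001, against a called 0.29) and roX2 (-0.11). With overlapping genes left out Hey was at 0.036. With single libraries left out Hey ranged from -0.752 to 0.30, upd3 from -0.073 to 1.259, Mmp1 from -0.503 to 0.11, rpr from -0.077 to 0.315, roX2 from -0.21 to 0.499, Muc68D from -5.105 to 4.924 and piwi up to 0.007. The germline median, 0.04, was -0.009 with DESeq2 size factors and with the DESeq2 Wald test, -0.24 with library totals, and -0.14 to 0.236 with single libraries left out. No other list median changed sign. The causes were not tested. With 2 libraries a group, differences near the spread of replicates, such as that of Eaat1, were at the limit of what could be called.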

Other observations

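Chromosome 4 stood apart from the large arms. Of its 106 genes tested 30.2% were higher and 52.8% lower in pros RNAi VNCs, with a median log2 fold change of -0.46, whereas on 2L, 2R, 3L, 3R and X between 40.8% and 43.0% were higher and between 39.6% and 42.0% lower. The eyeless paralogs ey and toy, Pax6 genes that lie on chromosome 4, had 2.18 and 2.37 CPM and 7.59 and 8.30 CPM in pros RNAi VNCs, against 13.5 and 16.4 CPM and 48.7 and 52.5 CPM in wild-type VNCs. Of 39 Y genes tested 14 were higher (35.9%) and 2 lower (5.13%), against 41.9% and 40.7% of all genes. The sexes of the wild-type flies are not given in the sources used here, and their part in these values was not tested. No test of a chromosome was run.

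RNA classes also differed. Of 78 tRNA genes 9 were higher and 25 lower (median -0.29), of 29 snRNA genes 20 were higher and 4 lower (median 1.01), and of 1115 CR genes without a class in their symbol 289 were higher and 520 lower (median -0.80). Among genes with 3438 or more bases of exons 49.5% were lower, and among those with at most 803 bases 37.6% were lower.

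Gap junction genes split by member. shakB, an innexin of electrical synapses, had 44.2 and 43.0 CPM in pros RNAi VNCs, against 315 and 306 CPM in wild-type VNCs, while Inx3 and ogre rose by 0.96 and 0.74 on the log2 scale. Of 28 genes of the vacuolar ATPase tested 20 were lower, 3 higher and 5 not called (median -1.10), with Vha68-1 at 75.8 and 89.0 CPM in pros RNAi VNCs, against 457 and 465 CPM in wild-type VNCs.

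CG3842 and MFS9, which fell far in pros RNAi VNCs, were also low in the pros Syp RNAi tumors, on a scale set across all 6 libraries, whereas DptB, another large fall, had 0.259 and 0.0258 CPM in pros RNAi, 1.00 and 8.89 CPM in pros Syp RNAi and 0.607 and 21.1 CPM in wild-type VNCs. CG3842 had 0.291 and 0.387 CPM in pros RNAi, 1.06 and 0.589 CPM in pros Syp RNAi and 48.9 and 45.6 CPM in wild-type VNCs. MFS9 had 1.69 and 1.70 CPM in pros RNAi, 1.09 and 1.497 CPM in pros Syp RNAi and 81.5 and 73.1 CPM in wild-type VNCs. CR43283, the RNA with the largest gain, had 29570 and 26328 CPM in pros RNAi, 27241 and 27690 CPM in pros Syp RNAi and 41.7 and 22.5 CPM in wild-type VNCs. Both tumors are set here beside the same wild-type libraries.

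Some genes differed between libraries of a group more than between groups. Muc68D, a mucin gene chosen after its values were seen, had 167 and 1.59 CPM in pros RNAi VNCs, against 2.76 and 109.7 CPM in wild-type VNCs, and was not called.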
